A study of Mus musculus with 10 samples.

Results

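A set of 10 epithelial genes named in a list was examined in the RNA of CD8+ T cells that had been co-cultured with 4T1 breast cancer cells. The list held 4 keratins (Krt7, Krt8, Krt18 and Krt19), the surface adhesion proteins Epcam and Cdh1, the claudins Cldn3, Cldn4 and Cldn7, and desmoplakin (Dsp). Each gene was found by its symbol, all 10 were present once among 57825 listed genes, and 7 of them were among the 15710 genes that averaged 0.5 FPKM or more across all samples and were tested. FPKM is the number of sequenced fragments of a gene, normalised to the length of the gene and to the fragment total of the sample.

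The 4T1 line is a mouse mammary carcinoma line that grows in Balb/c mice. CD8+ T cells were isolated with magnetic beads from the spleens of female Balb/c mice, activated for 12 h on plate-bound anti-CD3 with anti-CD28 and IL-2, cultured for 24 h with or without sodium acetate (NaAc, 5 mM), and then co-cultured with 4T1 cells for 48 h. The labels give day 3 for every sample, with 5 samples without acetate (the control co-cultures) and 5 with acetate (the NaAc co-cultures). T cells of both groups had therefore met anti-CD3, anti-CD28, IL-2 and 4T1 cells, and acetate was the named difference. RNA was taken from purified CD8+ T cells, with the step at which they were parted from the 4T1 cells not given in the sources used here, and the comparison asked how acetate changed the transcriptome of these preparations. No sample of 4T1 cells alone or of T cells cultured alone was analysed here, the share of CD8+ cells in the RNA preparations is not given either, and the labels do not say whether the 5 samples of a group were separate cultures or animals, so the p-values measure the spread between these samples, which may be technical.

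Keratins form the intermediate filaments of epithelial cells, in which a type II keratin such as Krt8 or Krt7 pairs with a type I keratin such as Krt18 or Krt19. The Krt8 and Krt18 pair is typical of simple epithelia, including the luminal layer of the mammary gland. Neighbouring epithelial cells are held together by adherens junctions built on E-cadherin (Cdh1), by desmosomes that Dsp anchors to the keratin filaments, and by tight junctions sealed by claudins. These proteins define epithelial cells and are not part of the usual programme of T lymphocytes.

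The 10 samples held between 16306447 and 18853726 fragments each by the scaling of the FPKM values. The listed genes took 95.5 to 97.9% of them in the control co-cultures and 89.8 to 92.1% in the NaAc co-cultures, and FPKM summed to 310964.6 to 335151.4 and to 282994.6 to 295927.8. The 10 genes and the tested genes named below were therefore also read after rescaling to the same FPKM total and to the mean level of the T cell markers, and changes of call or sign under either are given beside them. The number of genes above 0 was lowest, at 20233, in NaAc replicate 1, against 22291 to 25088 in the other samples. The T cell identity of the preparations was clear in every sample, with Cd8a at 72.2 to 81.9 FPKM and 15 T cell markers summing to 1235 to 1694 FPKM. The 10 epithelial genes summed to 7.34 to 14.6 FPKM in the control co-cultures and to 41.5 to 110.3 FPKM in the NaAc co-cultures, without overlap.

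Promoter sequences are shown for the 4 genes that passed the test and for Epcam, which did not, so that called genes and a gene not called can be read side by side. They come from RefSeq on GRCm38.p6 and run from 250 bases before to 50 bases after the annotated start on the gene's strand, 5′ to 3′. Capitals mark matches on either strand to 3 of the 5 motifs searched: TATAAA (the TATA box), GGGCGG (a GC box, CCGCCC on the other strand) and CAGGTG (an E-box, CACCTG on the other strand). The window of Krt8 is chr15:102004293-102004592 on the minus strand, and those on the plus strand are chr15:102027966-102028265 for Krt18, chr15:101412153-101412452 for Krt7, chr5:134985964-134986263 for Cldn3 and chr17:87635729-87636028 for Epcam.
Krt8: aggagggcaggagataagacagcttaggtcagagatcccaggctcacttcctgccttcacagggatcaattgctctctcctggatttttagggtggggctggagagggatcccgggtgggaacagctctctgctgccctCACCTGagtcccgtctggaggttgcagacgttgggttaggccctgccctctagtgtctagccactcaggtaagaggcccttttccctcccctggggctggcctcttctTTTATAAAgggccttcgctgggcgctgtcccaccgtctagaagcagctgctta
Krt18: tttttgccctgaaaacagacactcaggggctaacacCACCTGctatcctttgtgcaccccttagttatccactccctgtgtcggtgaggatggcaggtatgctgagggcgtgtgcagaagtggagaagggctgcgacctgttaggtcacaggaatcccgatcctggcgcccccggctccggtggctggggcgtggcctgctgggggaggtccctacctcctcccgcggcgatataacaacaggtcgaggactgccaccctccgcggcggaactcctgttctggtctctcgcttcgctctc
Krt7: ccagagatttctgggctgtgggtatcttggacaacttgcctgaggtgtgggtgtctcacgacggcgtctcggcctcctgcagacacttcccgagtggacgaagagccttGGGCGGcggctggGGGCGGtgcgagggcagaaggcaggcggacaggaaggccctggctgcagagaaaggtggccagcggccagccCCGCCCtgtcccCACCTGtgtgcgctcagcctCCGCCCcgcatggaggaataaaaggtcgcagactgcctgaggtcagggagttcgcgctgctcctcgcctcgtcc
Cldn3: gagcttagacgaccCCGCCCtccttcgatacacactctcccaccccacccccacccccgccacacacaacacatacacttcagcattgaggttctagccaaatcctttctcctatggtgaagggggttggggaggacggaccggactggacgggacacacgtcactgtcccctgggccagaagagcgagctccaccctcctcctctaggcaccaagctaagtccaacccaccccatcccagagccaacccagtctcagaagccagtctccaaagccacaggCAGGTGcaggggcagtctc
Epcam: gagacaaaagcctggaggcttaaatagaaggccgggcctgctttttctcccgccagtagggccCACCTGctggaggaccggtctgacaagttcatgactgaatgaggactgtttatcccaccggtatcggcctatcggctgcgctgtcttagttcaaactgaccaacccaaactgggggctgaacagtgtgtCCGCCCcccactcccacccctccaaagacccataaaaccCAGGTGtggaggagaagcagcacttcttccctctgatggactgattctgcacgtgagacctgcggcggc

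The CAGGTG E-box was found in the windows of all 8 of the 10 genes that had a promoter entry (in 1 of the 2 entries of Cldn7), and in 20.2% of the 32851 mouse promoters of the same length. The GC box was absent as these letters from Krt8 and Krt18, occurred 4 times each in Krt7 and Dsp, and was found in 35.7% of all promoters. A TATAAA match was present only in Krt8 among these genes, where TTTATAAA matches on both strands and overlaps itself across the annotated start, and in 13.6% of all promoters. TGANTCA (the AP-1 element) occurred 2 times in Cldn4 and in 7.81% of all promoters, and AACNNGTT (a grainyhead-type motif) in none of the genes and in 4.2% of all promoters. Genes that were called higher and genes that were not called thus shared the E-box, and no other searched motif was common to the 4 that passed the test. A match describes the letters of a window and was not tested as a binding site.

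Of the 7 members that were tested, 4 rose in the NaAc co-cultures (Krt7, Krt8, Krt18 and Cldn3), none fell, and 3 did not pass the test (Epcam, Cldn7 and Dsp) by limma with Benjamini-Hochberg adjustment over all 15710 genes. In that comparison 17.6% of all tested genes were called higher, 19.0% lower and 36.5% in either direction. The 4 called members had log2 fold changes of 2.63 to 3.33, and of these Krt7 and Cldn3 were under 0.5 FPKM in the controls and passed the filter through the NaAc group. Fitted without a filter on low values, over 32272 genes of which 8.94% were called higher, 8.07% lower and 17.0% in either direction, Cdh1 was called as well, making 5 of 10 members, with a median log2 fold change of 1.40 over all 10 members against 0.03 over all genes. In the same 5 genes, every NaAc sample lay above every control sample, a separation that 13.1% of the tested genes and 7.93% of the genes without the filter showed. In RNA from a mixed preparation, more cells of a type and more RNA of that type per cell cannot be told apart.

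**Figure D1:**
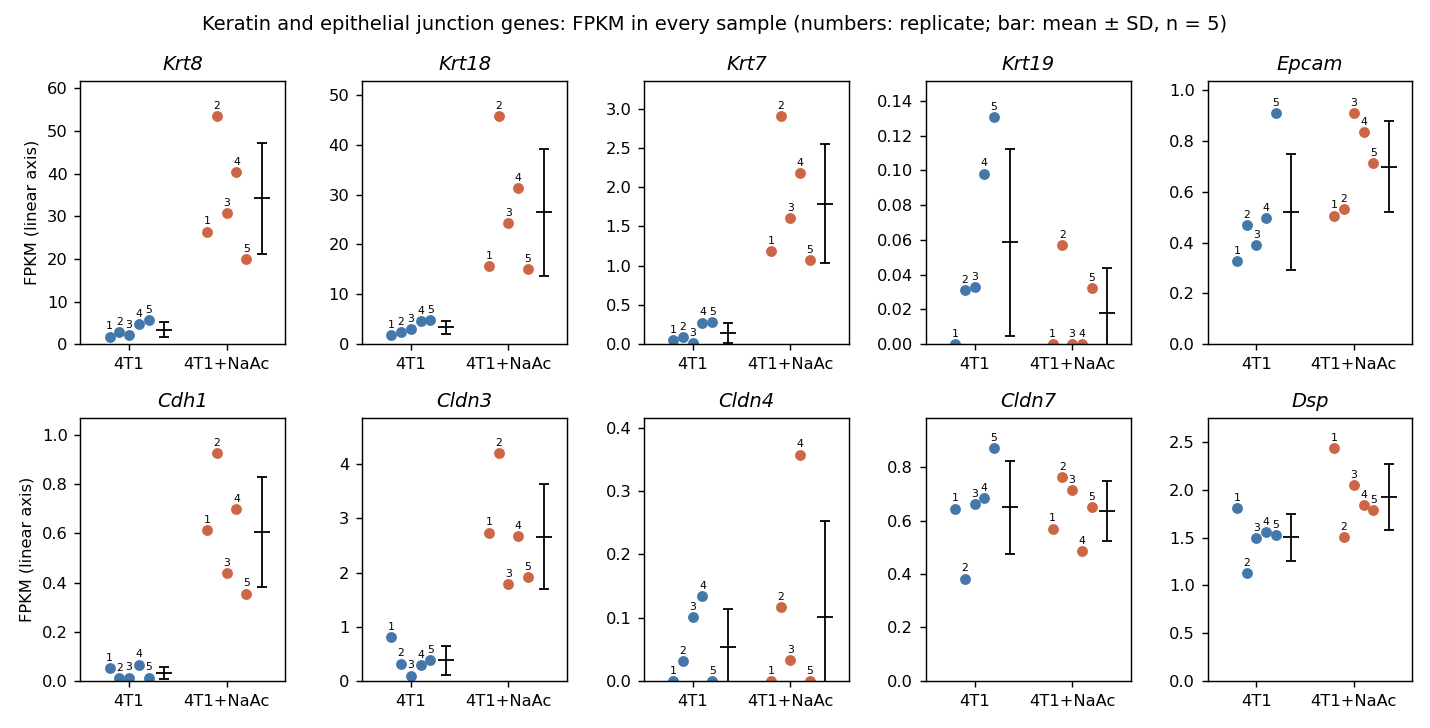
FPKM (y axis, linear from 0, a scale of its own in each panel) of the 10 genes in each of 5 control (4T1, blue) and 5 NaAc (4T1+NaAc, orange) co-cultures, with replicate numbers at the points and the mean ± SD beside them. Krt8, Krt18, Krt7, Cdh1 and Cldn3 do not overlap between the groups, and Krt19, Epcam, Cldn4, Cldn7 and Dsp do.

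Krt8, the type II keratin of simple epithelia (ENSMUSG00000049382, listed at 15:101905133-101912917 on the minus strand in a build not given in the sources used here), was the most abundant of the 10 genes. It stood at 1.77, 2.78, 2.16, 4.74 and 5.66 FPKM in control replicates 1 to 5. It stood at 26.4, 53.5, 30.7, 40.3 and 19.96 FPKM in NaAc replicates 1 to 5. Every NaAc sample was thus more than 3-fold above the highest control sample, with the lowest of them in replicate 5 and the highest in replicate 2. The mean rose from 3.42 ± 1.69 (SD, n = 5) to 34.2 ± 13.1 FPKM, or 9.98-fold, with a log2 fold change of 3.33 ± 0.35 (SE, on log2(FPKM + 0.1), 95% interval 2.55 to 4.12, limma adjusted p = 8.1e-05). These values rested on 58 to 183 fragments in a control sample and 649 to 1976 in a NaAc sample, and the processed pseudogene Krt8-ps, a near copy, held 3 and 24 fragments in the control and NaAc groups in all.

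Krt18, the type I partner of Krt8 (ENSMUSG00000023043, 15:101936615-101940462 on the plus strand), is the next listed gene after Krt8, 23697 bases away with no listed gene between them. Its levels were 1.87, 2.43, 3.03, 4.69 and 4.85 FPKM in the control co-cultures and 15.7, 45.8, 24.3, 31.3 and 15.0 FPKM in the NaAc co-cultures. The groups did not overlap, and replicates 2 and 4 of the NaAc group were again the highest. The mean rose 7.83-fold, from 3.38 ± 1.34 to 26.4 ± 12.7 FPKM (SD, n = 5), with a log2 fold change of 2.89 ± 0.35 (SE, 95% interval 2.11 to 3.68, limma adjusted p = 0.000174). The control values held 45 to 115 fragments a sample and the NaAc values 359 to 1240.

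Krt7, a type II keratin of glandular and ductal epithelia (ENSMUSG00000023039, 15:101308924-101328194 on the plus strand), was more than 10-fold scarcer than Krt8. It was at 0.0509, 0.0895, 0.0174, 0.276 and 0.284 FPKM in the control co-cultures, from 2 to 33 fragments. It was at 1.19, 2.90, 1.61, 2.18 and 1.07 FPKM in the NaAc co-cultures, from 125 to 386 fragments. All 5 NaAc samples therefore exceeded the highest control samples, which were replicates 4 and 5. Its mean rose 12.5-fold, from 0.143 ± 0.127 to 1.79 ± 0.761 FPKM (SD, n = 5), and its log2 fold change was 3.03 ± 0.42 (SE, limma adjusted p = 0.000331). Since the control level lies near the pseudocount of 0.1 FPKM, this log2 value depends on it and was 1.25 with a pseudocount of 1 and 3.97 with 0.01, called in each case.

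Krt19, the small type I keratin of ductal epithelia (ENSMUSG00000020911, 11:100031636-100039491 on the minus strand), was near the detection limit in both groups. It was at 0, 0.0309, 0.0331, 0.0981 and 0.131 FPKM in the control co-cultures and at 0, 0.0572, 0, 0 and 0.0325 FPKM in the NaAc co-cultures. No sample held more than 4 fragments, and a sample at 0 allows 3 fragments, or up to 0.0858 to 0.0992 FPKM over the samples. The 3 fragments of the NaAc group against 9 of the control group gave a rate ratio of 0.324 (95% exact interval 0.0563 to 1.296, counting error only), so a difference in Krt19 was not detectable at this depth, while a rise of the size seen in the other 3 keratins lay outside that interval.

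Cdh1, or E-cadherin, the core adhesion receptor of epithelial adherens junctions (ENSMUSG00000000303, 8:107329983-107396878 on the plus strand), had a mean of 0.319 FPKM over the 10 samples and so fell under the filter. Its control levels were 0.0523, 0.0125, 0.0134, 0.0663 and 0.0132 FPKM, from 1 to 5 fragments a sample. Its NaAc levels were 0.614, 0.928, 0.437, 0.698 and 0.355 FPKM, from 27 to 80 fragments. All NaAc samples were above all control samples. In total 12 fragments stood against 242, a rate ratio of 19.6 (95% exact interval 11 to 38.4, counting error only), and the fit without a filter gave a log2 fold change of 2.39 ± 0.28 (SE, limma adjusted p = 0.000269). Its control mean of 0.0316 FPKM lies below the pseudocount of 0.1, which compresses this value, and voom on fragments without a filter gave 4.17 (adjusted p = 6.71e-05). After rescaling to the same total or to the T cell markers the log2 fold change was 2.48 or 2.46, called in both.

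Epcam, an epithelial surface glycoprotein that mediates cell adhesion (ENSMUSG00000045394, 17:87943407-87958557 on the plus strand), was at 0.327, 0.470, 0.391, 0.498 and 0.911 FPKM in the control co-cultures. It was at 0.506, 0.532, 0.911, 0.835 and 0.713 FPKM in the NaAc co-cultures. The 2 groups overlapped, and control replicate 5 was as high as the highest NaAc sample. The log2 fold change of 0.41 ± 0.29 (SE, 95% interval -0.23 to 1.04, limma adjusted p = 0.305) did not pass the test, and the upper end of its interval was below the lower ends for Krt7, Krt8, Krt18 and Cldn3.

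The claudins differed among themselves. Cldn3, a sealing claudin of tight junctions (ENSMUSG00000070473, 5:135015068-135016326 on the plus strand), was at 0.808, 0.319, 0.0974, 0.289 and 0.385 FPKM in the control co-cultures and at 2.74, 4.21, 1.78, 2.68 and 1.91 FPKM in the NaAc co-cultures. The lowest NaAc sample was more than 2-fold above the highest control sample, replicate 1. The mean rose 7.02-fold, from 0.380 ± 0.262 to 2.67 ± 0.968 FPKM (SD, n = 5), and the log2 fold change was 2.63 ± 0.38 (SE, limma adjusted p = 0.000372). Its control values rested on 2 to 17 fragments a sample and its NaAc values on 37 to 100, and with a pseudocount of 1 the log2 fold change was 1.39.

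Cldn4 (ENSMUSG00000047501, 5:134973973-134975788 on the minus strand), also a tight junction claudin, lies 39279 bases from Cldn3 with no listed gene between them. It was at 0, 0.0316, 0.101, 0.134 and 0 FPKM in the control co-cultures and at 0, 0.117, 0.0334, 0.358 and 0 FPKM in the NaAc co-cultures. Both groups held 2 samples at 0, which allows up to 0.0876 to 0.101 FPKM over the samples. The totals of 8 and 16 fragments gave a rate ratio of 1.94 (95% exact interval 0.784 to 5.24, counting error only), and no difference was detectable at this depth.

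Cldn7, a claudin found along the lateral membrane of epithelial cells (ENSMUSG00000018569, 11:69855605-69858711 on the plus strand), was at 0.645, 0.383, 0.661, 0.685 and 0.871 FPKM in the control co-cultures and at 0.570, 0.762, 0.715, 0.486 and 0.649 FPKM in the NaAc co-cultures. All NaAc samples lay within the range of the control samples. Its log2 fold change was -0.00 ± 0.24 (SE, 95% interval -0.53 to 0.52, limma adjusted p = 0.994), and 0.15 and 0.11 under the 2 rescalings, not called in either.

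Dsp, which links desmosomes to keratin filaments (ENSMUSG00000054889, 13:38335270-38382553 on the plus strand), was at 1.81, 1.13, 1.498, 1.56 and 1.52 FPKM in the control co-cultures. It was at 2.44, 1.51, 2.05, 1.84 and 1.79 FPKM in the NaAc co-cultures. Of the 5 NaAc samples, 3 were above the highest control sample, replicate 1. The log2 fold change of 0.34 ± 0.15 (SE, 95% interval -0.00 to 0.67, limma adjusted p = 0.110) did not pass the test. It passed after rescaling to the same FPKM total (0.50, adjusted p = 0.0303), with array weights (0.34, adjusted p = 0.0459) and with the replicate number as a block (adjusted p = 0.0498).

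**Figure D2:**
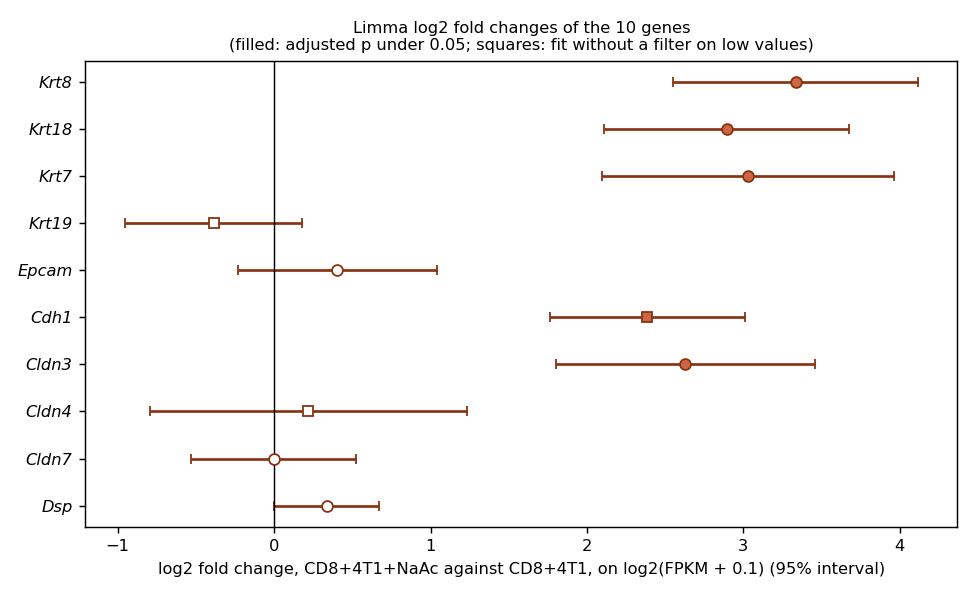
Log2 fold change on log2(FPKM + 0.1) of NaAc against control co-cultures (x axis) for each of the 10 genes, with 95% intervals from limma, where filled symbols passed an adjusted p of 0.05 and squares come from the fit without a filter on low values. Krt8, Krt18, Krt7, Cldn3 and Cdh1 lie between 2.39 and 3.33, where the value of Cdh1 is compressed by the pseudocount (4.17 by voom on fragments), and the intervals of the other 5 genes reach 0 or below.

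By their mean FPKM, a measure per length, the control co-cultures ranked Krt8 and Krt18 first, at 3.42 and 3.38 FPKM with overlapping ranges. Dsp followed at 1.504 FPKM, with every sample below every Krt18 sample and its range overlapping that of Krt8, and then Cldn7 (0.649), Epcam (0.519) and Cldn3 (0.380 FPKM), whose ranges overlapped. Krt7, Krt19, Cldn4 and Cdh1 were last, at 0.143 to 0.0316 FPKM, with overlapping ranges, and the ranges of Krt7, Krt19 and Cldn4 also overlapped that of Cldn3. In the NaAc co-cultures Krt8 and Krt18 still led with overlapping ranges. Cldn3 (2.67), Dsp (1.93) and Krt7 (1.79 FPKM) then overlapped with one another, Epcam, Cldn7 and Cdh1 at 0.699 to 0.606 FPKM did likewise, and Cldn4 and Krt19 were last. The highest Cldn4 sample, at 0.358 FPKM, lay just above the lowest Cdh1 sample, at 0.355 FPKM.

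Whether the genes changed by different amounts was asked with the log2 ratio of each gene to Krt8 within a sample, for the 4 genes that had at least 10 fragments in every sample. Krt18 stood at a log2 ratio of 0.02 ± 0.28 (SD, n = 5) to Krt8 in the control co-cultures and at -0.42 ± 0.20 in the NaAc co-cultures, a difference of -0.44 with p = 0.00794 by a two-sided exact permutation test, so Krt18 rose by less than its partner. The lowest control ratio of -0.22 and the highest NaAc ratio of -0.23 nearly touched. As a share of Krt8, Krt18 ran from 85.6 to 140.2% (median 98.9%) in the control and from 59.5 to 85.5% (median 77.7%) in the NaAc co-cultures.

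The other ratios moved further. On the log2 scale, Dsp differed by -3.00 relative to Krt8, from -1.02 to -4.01, Epcam by -2.93, from -2.44 to -5.37, and Cldn7 by -3.34, from -2.13 to -5.47. Control and NaAc values of each ratio were separate, and each exact permutation p was 0.00794, the smallest that 5 against 5 samples allow. Krt8 itself did not overlap between the groups while Dsp, Epcam and Cldn7 did. The p-values of these ratios thus largely repeat the rise of Krt8 and are no separate support. By their log2 fold changes of 0.41, -0.00 and 0.34 against 3.33, Epcam, Cldn7 and Dsp changed by less than Krt8 in these samples. Krt7, Cldn3 and Cdh1 had too few control fragments for this test and were at medians of 5.35, 7.87 and 1.73% of Krt8 in the NaAc co-cultures, against 3.22, 6.80 and 0.620% in the controls. The ranges overlapped for each, at 4.49 to 5.43% against 0.805 to 5.81% for Krt7, 5.80 to 10.4% against 4.51 to 45.6% for Cldn3 and 1.42 to 2.32% against 0.234 to 2.95% for Cdh1.

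**Figure D3:**
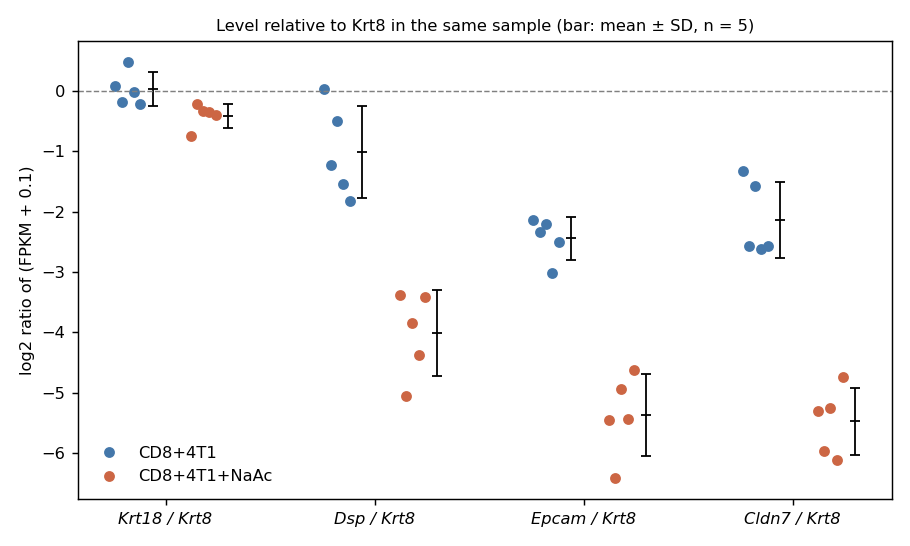
Log2 ratio of (FPKM + 0.1) of Krt18, Dsp, Epcam and Cldn7 to Krt8 in the same sample (y axis) in control (blue) and NaAc (orange) co-cultures, with the mean ± SD of 5 samples. The Krt18 ratio differs by -0.44 and the ratios of Dsp, Epcam and Cldn7 by -3.00, -2.93 and -3.34.

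Among the NaAc co-cultures 3 of the 4 keratins shared the order of the samples. In the NaAc co-cultures Krt7, Krt8 and Krt18 each ranked replicates 2, 4, 3, 1 and 5 from high to low, Cdh1 ranked replicates 2, 4, 1, 3 and 5, and Krt19, at 0 in 3 of these samples, did not share the order. In the control co-cultures the same 3 keratins were highest in replicates 5 and 4 and differed in the order of the rest. As a description over the 10 deviations from the group means, which share library and depth, Pearson's r was 0.96 between Krt7 and Krt8, 0.93 between Krt8 and Krt18 and 0.87 between Krt7 and Krt18. With Krt8 it was 0.75 for Krt19, 0.52 for Epcam, 0.47 for Cdh1, 0.42 for Cldn4, 0.34 for Cldn7, 0.19 for Cldn3 and -0.32 for Dsp, which was highest in replicate 1 and lowest in replicate 2 of both groups.

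Among 11635 protein-coding genes, those whose deviations followed the mean of the 7 tested members most closely were Apol9b (r = 0.98), Col16a1 (0.98), Lamb1 (0.97), Fermt2 (0.97) and Sh3bp4 (0.96), each over 10 samples. By their log2 level over both groups they were Col16a1, Fermt2, Lamb1, Hmga2 and Tjp1, with r from 0.995 to 0.997. The latter measure includes the difference between the groups, so genes picked by it differ between them by that choice. Both sets are the extremes of 11635 genes over 10 samples, and their levels are given as a description only. Lamb1, a laminin chain of basement membranes, rose from 1.49 ± 0.588 to 14.7 ± 4.23 FPKM (SD, n = 5), with a log2 fold change of 3.25. Col16a1, a collagen chain, rose from 0.517 ± 0.261 to 5.67 ± 1.91 FPKM, with a log2 fold change of 3.26, and Hmga2, a chromatin protein of embryonic and tumor cells, rose from 0.983 ± 0.462 to 6.32 ± 1.81 FPKM.

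The further keratins did not move together. Of 19 of them, 6 were at 0 in every sample and 3 passed the filter, and those 3 fell. Krt17, a keratin of basal and stressed epithelia, fell from 3.59 ± 0.386 to 2.11 ± 0.547 FPKM (log2 fold change -0.78, limma adjusted p = 0.00548), and Krt10, a keratin of stratified epidermis, from 1.39 ± 0.291 to 0.731 ± 0.0884 FPKM (-0.82, adjusted p = 0.00368). Krt16, named after its values were seen, fell from 1.44 ± 0.505 to 0.522 ± 0.311 FPKM (-1.38, adjusted p = 0.00979). These 3 calls and their directions held under each scaling tried. In the fit without a filter, Krt14 and Krt80, both named after their values were seen, rose. Krt14, a basal keratin, went from 0.0621 ± 0.0926 to 0.343 ± 0.177 FPKM (9 against 52 fragments, log2 fold change 1.51, limma adjusted p = 0.0350), and Krt80 from 0.0505 ± 0.00944 to 0.298 ± 0.170 FPKM (27 against 167 fragments, 1.298, adjusted p = 0.0162). The other 8 keratins above 0 were not called. The control co-cultures thus held Krt17 at a mean like that of Krt8, and the NaAc co-cultures held more than 10 times as much Krt8 as Krt17.

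The partners of the members in each junction were described from lists of known components. Since a low gene can pass the filter through the group in which it is high, counts and medians without the filter stand beside those of the tested genes, against a median log2 fold change of 0.03 over all genes without the filter. The shares of all genes to read them against are 17.6% higher and 19.0% lower among tested genes, and 8.94% higher and 8.07% lower without the filter. Of 26 further tight junction genes, 16 were tested, 5 rose and 3 fell. Among those that rose, Cgn and Ocln had control means of 0.179 and 0.272 FPKM and passed the filter through the NaAc group. Without the filter, of 24 above 0, 6 rose and 0 fell, with a median log2 fold change of 0.32. Tjp1, the ZO-1 scaffold, rose from 0.742 ± 0.205 to 2.95 ± 0.657 FPKM (log2 fold change 1.87, limma adjusted p = 7.27e-05), Cxadr by 1.16 and F11r, or JAM-A, by 1.15 on the log2 scale. Cldn15 fell by 0.84 (adjusted p = 0.0308, and 0.0659 after rescaling to the same total). Cldn12 did not pass, at 0.21, although it passed after rescaling to the same total (adjusted p = 0.0470), which left 10 of these genes higher and 0 lower, where 31.2% of all tested genes were higher and 8.83% lower. Without control replicate 3, NaAc replicate 3 or NaAc replicate 4, 5 of these genes were called, and over the 10 fits with a sample left out 4 to 6 were higher and 0 to 2 lower, so the 3 lower calls were held in none of them.

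Of 12 further adherens junction genes, 7 were tested, 4 rose and 1 fell, and without the filter 5 rose and 1 fell, with a median log2 fold change of 0.41 over all 12. Nectin2, an adhesion receptor, rose by 1.24, vinculin (Vcl) by 1.18 and afadin (Afdn) by 1.04 on the log2 scale, and the E-cadherin partner Ctnnb1, or beta-catenin, by 0.41. The other main partner Ctnna1, or alpha-catenin, was at 16.6 ± 1.09 FPKM in the control and 16.7 ± 1.25 FPKM in the NaAc co-cultures (log2 fold change 0.01, limma adjusted p = 0.960), and Nectin1 did not pass either (0.51, adjusted p = 0.181). Nectin4 fell by 0.44 (adjusted p = 0.0124), a call lost after rescaling to the same total and to the T cell markers.

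Of 14 further desmosome genes, 5 were tested, 4 rose and none fell, and without the filter, of 11 above 0, 4 rose as well, with a median log2 fold change of 0.22. Plakoglobin (Jup) rose from 1.28 ± 0.146 to 2.68 ± 0.317 FPKM (log2 fold change 1.01), and the plakophilins Pkp3, Pkp2 and Pkp4 rose by 0.60, 0.44 and 0.28. Envoplakin (Evpl) did not pass (-0.12, limma adjusted p = 0.596, and 0.04 after rescaling to the same total). Without NaAc replicate 3, or without NaAc replicate 4, 2 of these genes were called. The desmosomal cadherins of the list (Dsc1, Dsc2, Dsc3, Dsg1a, Dsg2, Dsg3 and Dsg4), by contrast, were nearly absent, with none of them above 5 fragments in any sample.

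Of 15 regulators of epithelial identity, 7 were tested, 4 rose (Klf5, Ehf, Tfap2a and Esrp2) and none fell, and without the filter 5 rose and none fell, with a median log2 fold change of 0.34 over all 15. Klf5 rose from 1.09 ± 0.300 to 6.01 ± 2.06 FPKM, a log2 fold change of 2.32, while Ehf and Tfap2a were under 0.5 FPKM in the controls and passed the filter through the NaAc group. Ovol2 did not pass, at 0.37, but did after rescaling to the same total (0.54, adjusted p = 0.0125) and to the T cell markers (0.50, adjusted p = 0.0317). Grhl3 did not pass, at -0.53, but was called lower without replicate 1 of both groups (-0.67, adjusted p = 0.0218). Of 20 epithelial surface and secreted genes, 15 were tested, 8 rose and none fell, and without the filter 8 of 19 above 0 rose, with a median log2 fold change of 0.67. Lcn2, or lipocalin 2, rose from 3.99 ± 1.47 to 40.3 ± 16.4 FPKM and Wfdc2 from 4.57 ± 0.986 to 33.4 ± 14.1 FPKM, levels and log2 fold changes (3.28 and 2.77) close to those of Krt8 and Krt18. Lamb3 rose by 2.09 and Itgb4 by 1.51 on the log2 scale, whereas Spint2 (-0.11) and Perp (0.11) did not pass. Spint2 was at 0.07 after rescaling to the same total and at 0.02 when scaled to the T cell markers, not called in either. After rescaling to the same total Perp was called higher (0.28, adjusted p = 0.0322), as it was when scaled to the T cell markers (0.24, adjusted p = 0.0486).

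Of 15 genes listed as mesenchymal, 9 were tested, 4 rose and 2 fell, and without the filter, of 13 above 0, 5 rose and 2 fell, with a median log2 fold change of 0.49. Fibronectin (Fn1) rose from 1.43 ± 0.474 to 19.7 ± 5.13 FPKM, a log2 fold change of 3.70, Sparc by 2.76 and Snai1 by 0.90. Sparc and Pdgfra, also called higher, had control means of 0.357 and 0.149 FPKM and passed the filter through the NaAc group. Vimentin (Vim), the most abundant of the list and named after its values were seen, fell from 150.9 ± 3.59 to 117.2 ± 12.7 FPKM (log2 fold change -0.37, limma adjusted p = 0.00221, and 0.0553 after rescaling to the same total). Zeb1, a repressor of Cdh1, fell by 0.39 (limma adjusted p = 0.00148, and 0.0633 when scaled to the T cell markers). Which cells of the preparations held the Vim and Zeb1 RNA was not tested, and neither was a link to Cdh1. Zeb2 (-0.03, and 0.14 and 0.09 after rescaling to the same total and to the T cell markers) and Twist1 (0.38) did not pass.

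**Figure D4:**
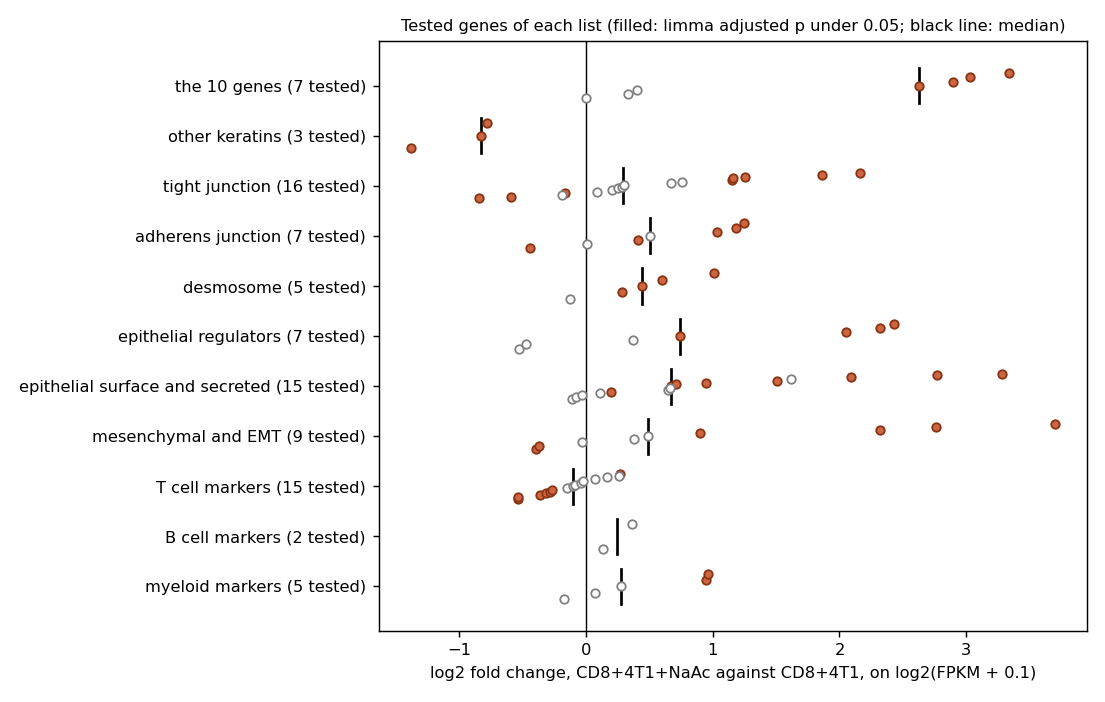
Log2 fold change on log2(FPKM + 0.1) of NaAc against control co-cultures (x axis) for the tested genes of the 10 epithelial genes and of 10 further lists (rows), filled where the limma adjusted p was under 0.05, with the median of each list as a black line. Only genes past the filter are drawn, among which the 3 other keratins lie below 0, and the T cell markers lie between -0.54 and 0.27.

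Markers of other cell types were read beside these results. Of 15 T cell markers, 1 rose and 6 fell, with a median log2 fold change of -0.10, while after rescaling to the same total 5 rose and 4 fell, where 31.2% of all tested genes rose and 8.83% fell. Cd3d, Cd3g, Cd3e and Lck fell by 0.54, 0.53, 0.36 and 0.32 on the log2 scale, and Zap70 rose by 0.27. Cd3e was not called when scaled to the T cell markers (adjusted p = 0.0771), and no T cell marker was called higher without control replicate 2 or without NaAc replicate 3, 4 or 5. Cd8a was at -0.04 (limma adjusted p = 0.559), and after rescaling to the same total it was called higher at 0.14 (adjusted p = 0.0475), while scaled to the T cell markers it was at 0.09, not called. The marker sums were 1483 to 1694 FPKM in the control and 1235 to 1645 FPKM in the NaAc co-cultures and overlapped. In NaAc replicates 1 to 5 the T cell sums were 1235, 1486, 1558, 1575 and 1645 FPKM, beside sums of the 10 epithelial genes of 50.2, 110.3, 62.6, 80.7 and 41.5 FPKM. The lowest T cell sum was in replicate 1 and the highest in replicate 5, and the epithelial sum was highest in replicate 2 and lowest in replicate 5. Of 6 B cell markers 2 were tested and 0 called (1 without NaAc replicate 1), and of 10 myeloid markers 5 were tested and 2 rose, Mpeg1 and Lyz2, by 0.95 and 0.96, with sums of 26.9 to 36.9 and 29.1 to 32.9 FPKM. Cd68, the most abundant myeloid marker at means of 25.8 and 22.8 FPKM, did not pass (-0.17, limma adjusted p = 0.133). It was at 0.0038 and -0.04 after rescaling to the same total and to the T cell markers, not called in either. Without replicate 1 of both groups Cd68 was called lower (-0.23, limma adjusted p = 0.046). Of the myeloid markers 1 was called without control replicate 2, 3, 4 or 5, or without NaAc replicate 3 or 4, and 1 in the fit without a filter. Where a list had 0 genes called in a direction by limma, it also had 0 by voom on fragments and 0 at an unadjusted p under 0.05, except for 1 regulator, Grhl3, that was lower at an unadjusted p under 0.05. The part of these other cells in the changes of the keratins and junction genes was not tested.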

How the data were processed

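RNA libraries (NEBNext Ultra) from 10 samples were sequenced, and the submitters' processing notes name fastp, HISAT2 (2.0.5), StringTie (1.3.3b) and featureCounts (1.5.0-p3). The genome build is not given in the sources used here. The deposited table holds FPKM per gene with gene length in bases, made by the authors, who tested with DESeq2. FPKM multiplied by length gave whole fragments within 0.1 for 100% of values, which set the depth. Genes averaging 0.5 FPKM or more were tested with limma (3.58.1, R 4.3.3) on log2(FPKM + 0.1), with trend and robust moderation and Benjamini-Hochberg adjustment (threshold 0.05). Intervals from fragment totals are exact binomial ones. Named genes were the 10 members, from each list up to 4 called genes with the largest change (mean of 1 FPKM or more) and up to 2 genes not called with the highest mean, and the 5 genes most like the members by each measure. The values of 1 gene that this rule names are not reported here. The members and lists were chosen with earlier results of these data known. The code was tested on simulated data. Alternatives changed the pseudocount, filter, scaling, moderation, weights, gene set, replicate block, samples and voom on fragments.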

Additional observations from a re-analysis of the deposited data

Results flagged for a closer look

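In 28 groups of 5 values, made of the 10 genes' log2 levels and the ratios to Krt8 in each group, no sample was set apart from the other 4 by Dixon's test, where chance alone would give about 1.4. No other result was set aside for a closer look.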

How the results depend on the processing

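The calls of Krt7, Krt8, Krt18 and Cldn3 held in every setting in which these genes were tested, and leaving out each sample in turn gave log2 fold changes of 2.81 to 3.24, 3.14 to 3.55, 2.66 to 3.06 and 2.35 to 2.90, with 4 members called each time. With a mean of at least 5 FPKM, 2 members were left, both called, and 3733 genes were called (1257 higher, 2476 lower) against 5742 (2764 and 2978); with each sample left out 4924 to 6930 were called. Rescaling to the same total moved the median of all genes from -0.02 to 0.15 and gave 4900 higher and 1387 lower, and scaling to the T cell markers gave 3691 and 1324. Cldn7, never called, changed sign to 0.0013 with a pseudocount of 0.01, to 0.15 and 0.11 under those scalings, 0.0322 with array weights, 0.0257 with voom and 0.0348 without replicate 1 of both groups, and ran from -0.15 to 0.10 with a sample left out; the cause was not tested. B cell markers had 1 call under both scalings, under the replicate block and without replicate 1 of both groups (0 to 1 with a sample left out). With a sample left out, myeloid markers had 1 to 3 calls, tight junction genes 5 to 8 and desmosome genes 2 to 4. Tight junction genes had 10 calls after rescaling to the same total, and 9 when scaled to the T cell markers or without replicate 1 of both groups. Without the filter 5 other keratins and 1 myeloid marker were called, since more genes were tested. Deviations of same-numbered samples had correlations of -0.03 to 0.07, so the numbers were not taken as pairs; with the replicate block 2551 genes were higher and 2848 lower, Dsp was called (adjusted p = 0.0498), tight junction genes had 5 calls, and the ratios to Krt8 of Krt18, Epcam, Cldn7 and Dsp stayed at -0.44, -2.93, -3.34 and -3.00 with an exact sign-flip p of 0.0625, the smallest that 5 pairs allow. The scaling to T cell markers and the samples left out for the lists, replicate 1 left out of both groups, the unfiltered list counts, the unfiltered scalings and voom fit, and the block for ratios were chosen after seeing the data. Levels under about 0.1 FPKM (Krt19, Cldn4) rest on few fragments, and small changes in them could not be read at this depth.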
